A study of Mus musculus with 10 samples.

Results

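The genes of osteoclast support and parathyroid hormone signalling were followed in cultured osteoblast precursors. These are Tnfsf11, Tnfrsf11b, Csf1, Il34, Pth1r and Pthlh, 6 of the 29583 genes in the deposited table. They were selected by gene name, with earlier results of these data known. MC3T3-E1 is a line of osteoblast precursors derived from mouse skull. Subclone 14 of the line was used at the third passage. β-ecdysterone is a plant sterol, and the study asked how it alters gene expression in these cells. The labels give the strain C57BL/6 and the age newborn, and their source field names mesenchymal stem cells of bone marrow rather than the skull line. Treated cells received 100, 150 or 200 μM β-ecdysterone for 5 or 10 days, giving 6 libraries, and cells at 0 μM gave 1 library on each day. A further 2 libraries, A-5 and B-4, are labelled untreated and carry no dose and no time. All 10 libraries came from the same line in standard medium.

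There was 1 library per dose and day, although the labels give n = 3 for the RNA extraction. The 3 doses therefore stood in as replicates of treatment, and p-values measure the spread between these libraries only. Library totals lay between 27108562 and 58218009 counts. Values are given as CPM, which scales each count to library size after TMM normalisation (trimmed mean of M values). Levels of different genes are compared in FPKM, which the authors scaled to transcript length and library size. Calls required an adjusted p (Benjamini-Hochberg, edgeR) under 0.05. For treated against control cells and for day 10 against day 5, they also required a log2 fold change larger than 1 in either direction. The trend with dose and the difference of the response between days had no such limit. Where a gene was at 0, as many as 3 counts remain possible, or 0.0501 to 0.117 CPM, and such floors and all counting intervals cover counting error only.

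Osteoblasts steer the formation of osteoclasts, the cells that resorb bone. Tnfsf11 encodes RANKL, the ligand that drives osteoclast precursors to differentiate through the receptor RANK, and Tnfrsf11b encodes osteoprotegerin, the secreted decoy that binds RANKL. CSF1 and IL-34 are ligands of the CSF1 receptor on cells of the macrophage lineage and keep osteoclast precursors alive. Parathyroid hormone and the related peptide encoded by Pthlh both act on osteoblasts through the receptor PTH1R, which couples to cAMP, and this signal is known to raise Tnfsf11 and to lower Tnfrsf11b.

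The 6 genes lie on the minus strand of GRCm38. By GENCODE M21, Tnfsf11 (ENSMUSG00000022015) spans chr14:78277445-78308043, Tnfrsf11b (ENSMUSG00000063727) chr15:54250619-54278484 and Csf1 (ENSMUSG00000014599) chr3:107741048-107760469. Il34 (ENSMUSG00000031750) spans chr8:110741829-110805924, Pth1r (ENSMUSG00000032492) chr9:110722085-110747145 and Pthlh (ENSMUSG00000048776) chr6:147252101-147264183. Pth1r shares 95 of its 2925 exonic bases with Myl3, a muscle myosin light chain gene on the opposite strand. Il34 shares 22 exonic bases with the antisense gene Gm15894 and 75 with Gm15895. Whether the reads were counted by strand is not given in the sources used here, so reads from such shared bases cannot be told apart.

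Promoter sequences from RefSeq (GRCm38.p6) matched 4 of the 6 genes, with 6 entries. Tnfrsf11b and Il34 had none. Those of Pth1r, the gene called in treated cells, and of Csf1, the gene with the highest level, are shown 5′ to 3′ from 250 bases before to 50 bases after the start site. Pth1r has 3 such windows, chr9:110747096-110747395, chr9:110743637-110743936 and chr9:110742561-110742860, and Csf1 has 1, chr3:107760420-107760719. Capitals mark matches on either strand to the GC box GGGCGG and to TGACG, the core of the cAMP response element.
Pth1r promoter 1: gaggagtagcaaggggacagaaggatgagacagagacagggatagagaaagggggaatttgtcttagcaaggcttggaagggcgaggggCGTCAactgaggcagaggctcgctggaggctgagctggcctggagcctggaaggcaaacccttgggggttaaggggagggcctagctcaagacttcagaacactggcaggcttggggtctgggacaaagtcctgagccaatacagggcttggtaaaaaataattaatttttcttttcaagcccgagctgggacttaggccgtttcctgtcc
Pth1r promoter 2: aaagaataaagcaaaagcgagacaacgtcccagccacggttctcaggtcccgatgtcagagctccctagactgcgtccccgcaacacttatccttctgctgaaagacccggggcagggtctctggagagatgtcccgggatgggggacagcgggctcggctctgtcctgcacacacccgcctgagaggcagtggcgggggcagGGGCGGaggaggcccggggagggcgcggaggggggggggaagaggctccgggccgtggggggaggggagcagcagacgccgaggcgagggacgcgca
Pth1r promoter 3: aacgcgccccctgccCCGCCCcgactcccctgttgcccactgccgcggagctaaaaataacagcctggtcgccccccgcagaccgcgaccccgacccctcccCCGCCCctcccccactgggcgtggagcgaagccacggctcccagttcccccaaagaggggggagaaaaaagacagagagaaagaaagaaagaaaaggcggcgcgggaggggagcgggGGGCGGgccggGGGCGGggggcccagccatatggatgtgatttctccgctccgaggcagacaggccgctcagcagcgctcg
Csf1 promoter 1: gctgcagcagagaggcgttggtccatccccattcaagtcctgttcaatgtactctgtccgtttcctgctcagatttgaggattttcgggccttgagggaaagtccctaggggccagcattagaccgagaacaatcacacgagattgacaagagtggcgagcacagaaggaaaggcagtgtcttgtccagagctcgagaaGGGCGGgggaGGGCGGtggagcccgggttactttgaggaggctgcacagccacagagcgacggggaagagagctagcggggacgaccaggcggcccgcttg

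Positions of motifs are those of the first base on the gene's strand, counted from +1 at the start site with -1 just before it. The first Pth1r promoter held 1 match to TGACG, on the opposite strand at -161, and no GC box. The second held 1 GC box at -47, and the third held 4, at -235, -148, -31 and -20. Csf1 held GC boxes at -51 and -41. Of all 32851 promoters of this length, 20.8% held TGACG and 35.7% held a GC box. The full element TGACGTCA, which contains TGACG on both strands, was found in 1.79% of promoters, the Runx core TGTGGT in 16.8% and the TATA box TATAAA in 13.6%. None of the 6 entries held TGACGTCA or TGTGGT, and TATAAA was found only in Tnfsf11, at -32 on the opposite strand. Pthlh held 4 GC boxes. The GC content of the 3 Pth1r promoters was 54.3%, 68.0% and 69.3%, against a median of 52.7% over all promoters.

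Markers of osteoblasts were examined first. All 12 osteoblast markers other than Pth1r had more than 3 counts in at least 1 library. They summed to 4361 to 8346 FPKM in treated cells, 4921 to 5810 FPKM at 0 μM and 3976 to 4620 FPKM in the untreated libraries. Such a sum does not show each marker. At 0 μM, Alpl (alkaline phosphatase) averaged 0.0317 CPM and Ibsp (bone sialoprotein) 0.768 CPM, against 1399 CPM for Sparc (osteonectin). The 15 osteoclast markers summed to 132 to 232 FPKM over all libraries, with Ctsk (cathepsin K), Tcirg1 and Clcn7 well expressed, whereas Calcr, Dcstamp, Ocstamp and Tnfrsf11a had at most 3 counts in any library and Acp5, tartrate-resistant acid phosphatase, stayed at or under 0.0372 FPKM. The 15 macrophage markers summed to 18.2 to 45.2 FPKM, while Ptprc (CD45) stayed at or under 0.0373 FPKM. The untreated libraries differed from each other. Ramp2, for example, was at 2.32 FPKM in A-5 and 32.5 FPKM in B-4, against 2.07 and 3.13 FPKM at 0 μM. The 6 genes and the counts of each list are therefore given against both kinds of control.

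**Figure D1:**
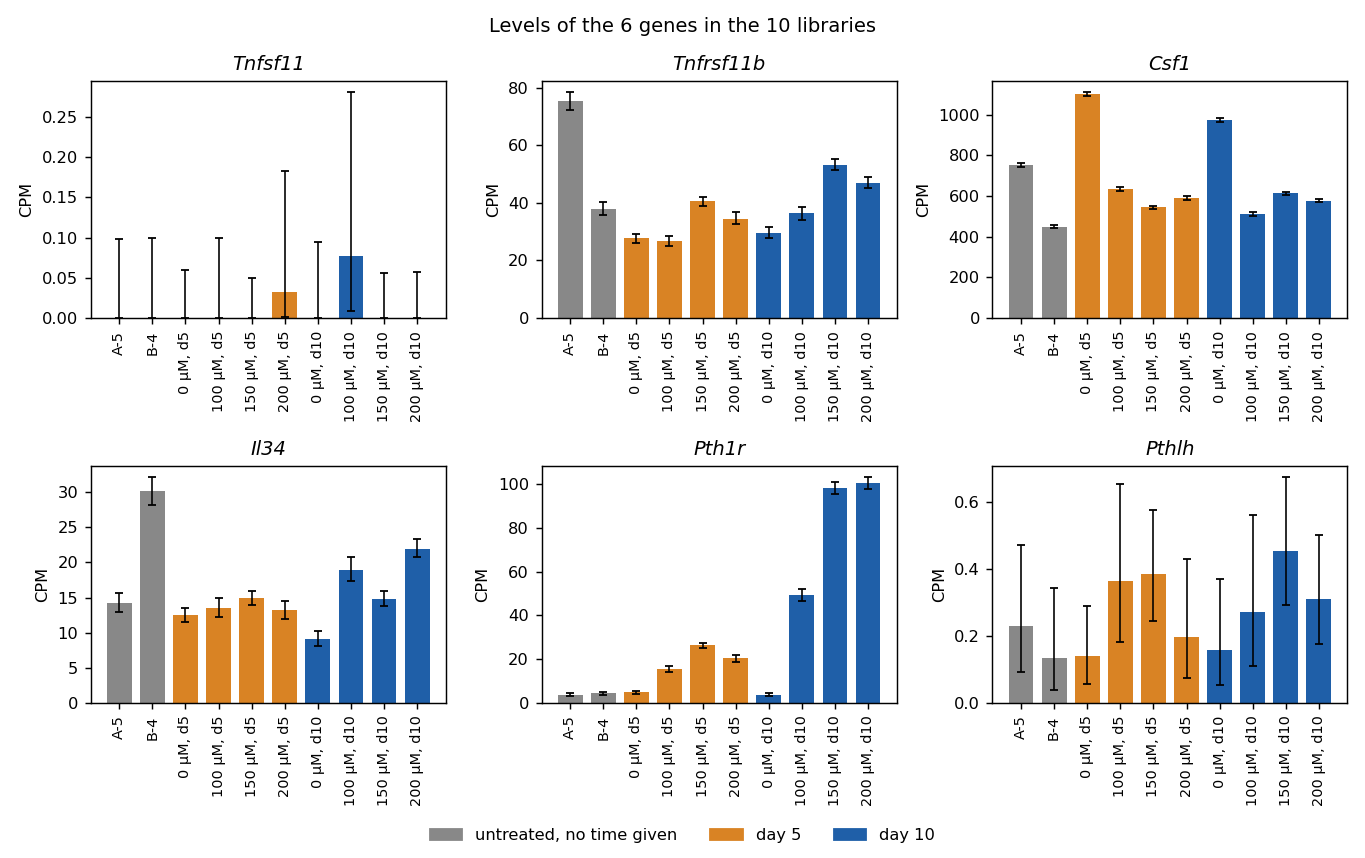
Level of each gene (CPM, linear axes starting at 0) in the 10 libraries, grey for untreated, orange for day 5 and blue for day 10. Error bars are exact 95% Poisson intervals of the count, and for a count of 0 the bar reaches 3 counts. Pth1r stood between 15.2 and 101 CPM in treated cells and between 3.59 and 4.77 CPM in the other 4 libraries, and Tnfsf11 was at 0 in 8 libraries.

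To see which of these genes responded to β-ecdysterone, the 6 treated libraries were compared with those at 0 μM, with day as a covariate. Of the 6 genes, 5 passed the filter on low counts, and 1 of them, Pth1r, was called higher, on a background of 13.4% of the 16794 genes tested. None was called lower, where the background was 5.98%. At an unadjusted p under 0.05, edgeR separated all 5 tested genes, a property of 51.5% of all genes tested, and DESeq2 also called 1 gene higher and 0 lower.

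Tnfsf11, the RANKL gene, was close to undetected. A single library of day 5, at 200 μM, held 1 count, and a single library of day 10, at 100 μM, held 2. The remaining 8 libraries held 0. In all, 3 of 394498276 counts fell on it, with an exact 95% Poisson interval of 0.619 to 8.77 counts. A difference between treated and control cells was not detectable at this depth, and no fold is given.

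Tnfrsf11b, the osteoprotegerin gene, was clearly expressed in every library. Its level at 0 μM was 27.7 CPM on day 5 and 29.6 CPM on day 10. In treated cells the lowest value was 26.7 CPM, the median 38.4 CPM and the highest 53.2 CPM, with a mean of 39.7 ± 9.38 CPM (SD, n = 6). The untreated libraries held 75.2 CPM (A-5) and 37.9 CPM (B-4). Treated cells thus lay above the 0 μM library of the same day in 5 of 6 cases, with overlap at 100 μM on day 5, and A-5 exceeded every treated library. The log2 fold change against 0 μM was 0.47 (SE 0.17), inside the 2-fold limit and therefore not a call (adjusted p = 0.0542, edgeR, and 0.0274, DESeq2). Against the untreated libraries its sign turned (-0.51, adjusted p = 0.215), and against A-5 alone it was -0.92 (adjusted p = 0.0376). A comparison with 1 control library takes its spread from the treated libraries and assumes that the lone control varies as they do. The adjusted p lay between 0.00938 and 0.866 over 21 alternatives. Between neighbours in the order of the 10 libraries, only the step from 150 μM on day 10 to A-5 exceeded 0.29, the SD of the doses within a day (log2).

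The decoy stood above its ligand in every library. Per length, the Tnfrsf11b level of 8.46 to 24.7 FPKM was 218 to 807 times the FPKM that 3 Tnfsf11 counts would give in the same library. Since Tnfsf11 was at 0 in 8 libraries, both of those at 0 μM included, a difference in the ratio of ligand to decoy between treated and 0 μM cells could not be tested.

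The receptors of these ligands, and Pth2r, were also examined. RANK (Tnfrsf11a) had 0 to 3 counts per library and was not tested. Lgr4, a membrane receptor that also binds RANKL, was present at 27.5 to 62.9 CPM, and its log2 fold change of 0.17 was not called (adjusted p = 0.321, edgeR). The CSF1 receptor gene Csf1r had 0 to 25 counts and a log2 fold change of -0.94 (adjusted p = 0.36, edgeR). Ptprz1, which encodes a further receptor of IL-34, had 0 to 6 counts. Pth2r, which encodes a relative of PTH1R, had 0 to 11 counts. Ptprz1 and Pth2r did not pass the filter and were not tested.

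Csf1, the gene of macrophage colony-stimulating factor, had the highest level of the group, ranking 158 to 470 by FPKM among 22036 Ensembl genes. It was at 1102 CPM on day 5 and 974 CPM on day 10 in cells at 0 μM. Treated libraries ran from 513 CPM through a median of 584 CPM to 636 CPM, with a mean of 579 ± 45.0 CPM (SD, n = 6). The untreated libraries held 752 CPM (A-5) and 450 CPM (B-4). All 6 treated libraries lay below both 0 μM libraries, as did 26.4% of all genes tested, and they lay between the untreated ones. The log2 fold change was -0.83 (SE 0.10, adjusted p = 0.000179, edgeR), inside the 2-fold limit and therefore not a call. Under the adjusted p alone, 20.8% of genes tested were lower. It stayed between -0.89 and -0.77 when each library was left out in turn. Against the untreated libraries it was -0.05 (adjusted p = 0.862, edgeR), and against B-4 alone it was 0.38. Over 21 alternatives the adjusted p lay between 4.55e-14 and 0.862.

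Il34 encodes the other ligand of the CSF1 receptor. Its level at 0 μM was 12.4 CPM on day 5 and 9.14 CPM on day 10. Treated cells ranged from 13.2 CPM through a median of 14.9 CPM to 22.0 CPM, with a mean of 16.2 ± 3.50 CPM (SD, n = 6). A-5 held 14.2 CPM and B-4 30.2 CPM, the highest value of all libraries. The 6 treated libraries stood above both 0 μM libraries, as did those of 26.3% of all genes tested, and the 2 highest of the 8 libraries at a known dose were 200 and 100 μM on day 10. The log2 fold change was 0.57 (SE 0.21), inside the 2-fold limit and therefore not a call (adjusted p = 0.0501, edgeR, and 0.0202, DESeq2). Leaving out 0 μM on day 5 gave 1.03 and a call (adjusted p = 0.0094), leaving out 0 μM on day 10 gave 0.17 (adjusted p = 0.623), each with a single control library left, and the adjusted p lay between 0.0094 and 0.982 over 21 alternatives. Against the untreated libraries the value was -0.45 (adjusted p = 0.281, edgeR).

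The balance of both CSF1 receptor ligands was then compared within each library. Csf1 exceeded Il34 by 42.9 and 51.3 times in FPKM at 0 μM on days 5 and 10. In treated cells the ratio was 12.0 to 22.0. It was 25.2 in A-5 and 6.65 in B-4. The treated libraries did not overlap with 0 μM but lay between the untreated ones. The log2 difference was -1.49 (exact permutation test, two-sided p = 0.0357, the smallest that 28 splits allow). This test took no account of day and exchanged libraries across days and doses. With day held fixed fewer splits would remain, and the smallest possible p would be larger. When the untreated libraries served as the control the difference was 0.37 (p = 0.571), and when they joined 0 μM it was -0.56 (p = 0.324), both by the exact permutation test.

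Pth1r, the receptor of parathyroid hormone and of the related peptide, was upregulated in treated cells. It was at 4.77 CPM at 0 μM on day 5 and at 3.59 CPM on day 10. On day 5 it reached 15.2 CPM at 100 μM, 26.2 CPM at 150 μM and 20.4 CPM at 200 μM. On day 10 the values were 49.2, 98.5 and 101 CPM in the same order of doses. A-5 held 3.62 CPM and B-4 4.27 CPM. All treated libraries lay above the other 4 libraries, as they did for 11% of all genes tested. Its rank by FPKM among 22036 Ensembl genes moved from 10490 at 0 μM on day 10 to 1357 at 200 μM on day 10.

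The log2 fold change of Pth1r was 3.12 (SE 0.55, adjusted p = 0.00142, edgeR), or 8.69-fold. It ranked 847 from the highest fold change among the 16794 genes tested. Relative to 0 μM of the same day, the libraries of day 5 lay 3.18- to 5.49-fold higher and those of day 10 13.7- to 28.1-fold higher. Leaving out each library in turn gave 2.13 to 4.53 on the log2 scale, the lowest without the 0 μM library of day 10 and the highest without that of day 5. Against the untreated libraries the value was 3.71 (adjusted p = 0.0191, edgeR). With A-5 alone (3.84, adjusted p = 0.0603) or B-4 alone (3.61, adjusted p = 0.0706) as the control, fold changes were as large but not called, and over 21 alternatives the adjusted p lay between 2.31e-06 and 0.0706. Myl3, which overlaps Pth1r on the other strand, had 0 to 57 counts per library and was itself called higher (log2 fold change 3.80, SE 0.78, adjusted p = 0.00342, edgeR), against 113 to 5218 counts of Pth1r. In bulk RNA, more cells with Pth1r and more Pth1r RNA per cell cannot be told apart.

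**Figure D2:**
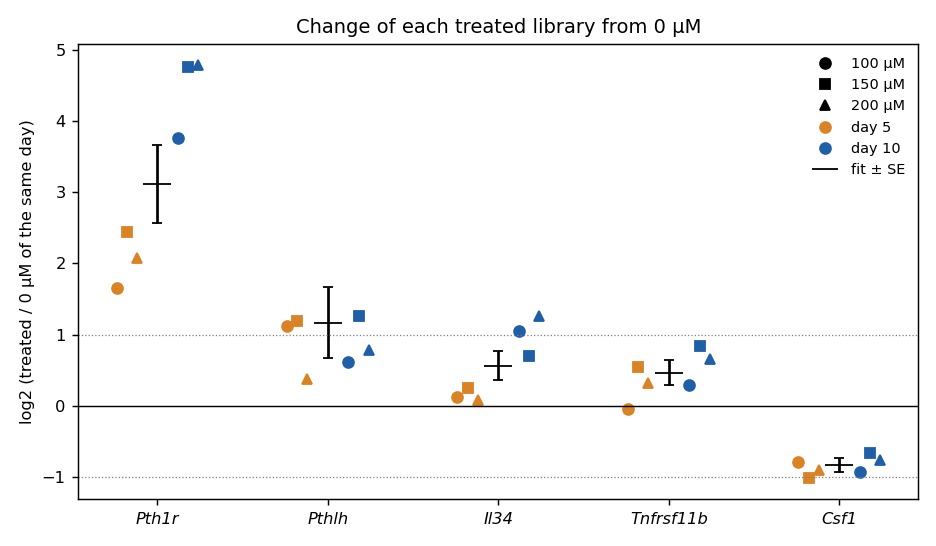
Log2 change of each treated library from the 0 μM library of its day, for the 5 genes tested (circles 100 μM, squares 150 μM, triangles 200 μM, orange day 5, blue day 10). Black lines are the edgeR log2 fold changes ± SE over both days, and dotted lines mark the 2-fold limit. Pth1r lay above that limit in all 6 libraries, at 1.66 to 4.79, and Csf1 lay below 0 in all 6.

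Pthlh, the gene of the related peptide, was close to the detection limit. Cells at 0 μM gave 7 counts (day 5) and 5 counts (day 10), treated cells gave 6 to 24, and A-5 and B-4 gave 7 and 4. Treated cells averaged 0.330 ± 0.0902 CPM (SD, n = 6), against 0.140 and 0.159 CPM at 0 μM. The treated libraries stood above both 0 μM libraries, as for 26.3% of all genes tested, and overlapped with A-5. The log2 fold change of 1.17 (SE 0.50) was not called (adjusted p = 0.0861, edgeR).

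Next, days and doses were compared within treated cells. Pth1r was 20.6 ± 5.50 CPM on day 5 and 82.8 ± 29.1 CPM on day 10 (SD, n = 3 doses each). It rose by 1.96 on the log2 scale (SE 0.21, adjusted p = 0.008, edgeR), or 3.89-fold, 1 of the 129 genes called higher on day 10 (0.774% of 16664 genes). Without the library of 100 μM on day 5 the rise was about as large (1.91) but no longer called (adjusted p = 0.0622, edgeR). Over 11 alternatives the adjusted p lay between 3.5e-53 and 0.0622. The lowest came only with the filter of at least 1 count in total, the cause of which was not tested. DESeq2 gave 2.16e-16, and the lowest of the other edgeR fits was 0.00547, without 150 μM on day 5. The other 4 tested genes were not called between days, nor in the other direction, for which the background was 0.126%. Il34 (0.42, adjusted p = 0.242) and Tnfrsf11b (0.42, adjusted p = 0.216) had similar values, and Csf1 was at -0.06 (adjusted p = 0.861, edgeR).

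The response itself, treated against 0 μM, was compared between days, with a spread taken only from treated libraries since each day had 1 control. For Pth1r it was larger on day 10 by 2.40 on the log2 scale (SE 0.60), with an unadjusted p of 0.00286 and an adjusted p of 0.41 from edgeR, so a difference between days was not established. With a filter of at least 1 count in total, this difference was called (adjusted p = 0.00555), and over 10 alternatives the adjusted p lay between 0.00555 and 0.714. No other gene of the group came under an adjusted p of 0.05. At an unadjusted p under 0.05 there were 2 genes, Pth1r and Il34, on a background of 8.23%, and DESeq2 called 0. Over all genes 2 of 17799 were called in edgeR, and both were lower (0.0112%).

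No gene of the group was called for a trend with dose between 100 and 200 μM in edgeR or in DESeq2, and 1 of them, Pth1r, was under an unadjusted p of 0.05, on a background of 2.35%. Its slope was 0.72 per 100 μM on the log2 scale (SE 0.27, adjusted p = 0.997, edgeR). On both days Pth1r was lowest at 100 μM. Totals were under 40000000 counts at 100 μM on both days and at 200 μM on day 5. They were above 40000000 counts in the remaining treated libraries, so dose and depth are partly mixed. The part of depth in this order was not tested. Of all genes tested, 1 had a trend that was called (0.006%), and with the filter of at least 1 count Pth1r was called (adjusted p = 0.00213, the lowest of 11 alternatives, whose highest was 1).

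The order of libraries by Pth1r level had 4 control libraries at the bottom, which did not differ from each other beyond 0.50, the SD of the doses within a day (log2). The steps that exceeded this SD were 3 of 9, from the controls to 100 μM on day 5, from day 5 to day 10, and from 100 to 150 μM on day 10. For Csf1, 4 of 9 steps exceeded the SD of 0.12, and none of these lay between 2 treated libraries. For Il34, 3 of 9 steps exceeded 0.21. For Pthlh none of the 9 steps exceeded 0.40.

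Genes whose log2 CPM followed each gene most closely over the 10 libraries were sought among 11859 genes. For Pth1r these were Extl2, Fgfr3 and Fgd3 (Pearson's r of 0.988 to 0.990). For Csf1 they were Sec24b, Runx1 and Pdzd2 (0.984 to 0.991), for Il34 Gpr137, Ip6k2 and Klc4 (0.961 to 0.969), and for Tnfrsf11b Twsg1, Borcs7 and Snap23 (0.909 to 0.948). The points share library, depth and treatment, and the values are descriptions chosen as the highest of many.

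**Figure D3:**
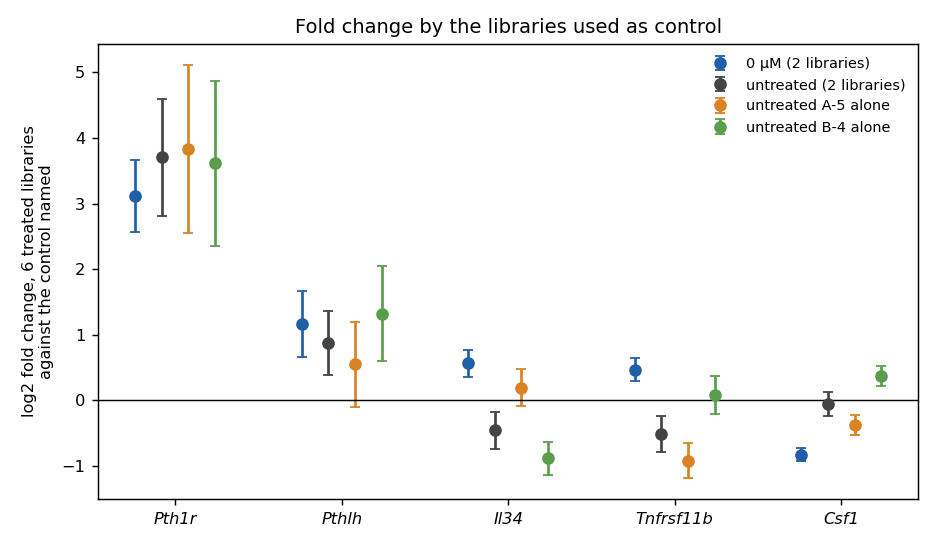
Log2 fold change ± SE of the 6 treated libraries against 4 choices of control (blue 0 μM, black both untreated libraries, orange A-5 alone, green B-4 alone). Pth1r stayed between 3.12 and 3.84, whereas Csf1, Il34 and Tnfrsf11b took both signs.

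Genes around these 6 were then counted by list, against backgrounds of 13.4% of all genes called higher and 5.98% called lower at 0 μM as the control, and of 6.73% and 2.87% with the untreated libraries. From the lists, those of cell markers included, 35 genes are named by the rule, 18 of which were called the same way against the untreated libraries and 0 the opposite way. Of 44 tested genes of signal transduction downstream of PTH1R, 5 were higher and 1 lower, with a median log2 fold change of -0.16 against 0.05 over all genes. Under the adjusted p alone 7 were higher and 16 lower, where 22.6% and 20.8% of all genes were. Ramp2, which encodes an accessory protein of peptide hormone receptors, rose from a mean of 3.88 CPM at 0 μM to 72.9 ± 12.4 CPM in treated cells (log2 fold change 4.25, SE 0.26, adjusted p = 3.24e-06, edgeR). Pde3a, a phosphodiesterase that degrades cAMP, rose by 2.20, Arrb1, the β-arrestin 1 gene, by 1.50, and Adcy9, an adenylyl cyclase that makes cAMP, by 1.28, all on the log2 scale. Sik1, a kinase restrained by cAMP signalling, was the fifth, at 1.14, and Pkig, an inhibitor of protein kinase A, was the gene called lower, at -1.12; both were named after their values were seen. With the untreated libraries as the control, 3 of 43 genes were higher and 1 lower. Pde3a and Arrb1 were called there too, whereas Ramp2, at 3.33 CPM in A-5 and 46.1 CPM in B-4, was not (1.56, adjusted p = 0.15, edgeR), and nor was Adcy9 (0.39, adjusted p = 0.309).

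The genes that answer parathyroid hormone and cAMP moved in both directions. Their list is not split by the direction in which the hormone moves each gene, so agreement with a hormone response was not tested. Of 29 tested genes, 7 were higher and 9 lower, with a median of -0.23, where 13.4% and 5.98% of all genes were. Under the adjusted p alone 10 were higher and 11 lower, where 22.6% and 20.8% of all genes were. Mmp13, the collagenase 3 gene, rose from 24.0 CPM at 0 μM to 777 ± 535 CPM (log2 fold change 4.69, adjusted p = 1.15e-05, edgeR), and between days 5 and 10 in treated cells it rose by 1.92 (adjusted p = 0.00543, edgeR). Wnt4, a secreted Wnt ligand, rose by 4.17 and Rgs2, a regulator of G protein signalling, by 4.14 on the log2 scale. Ccl2, a chemokine that attracts monocytes, fell from 48.7 CPM to 1.47 ± 0.619 CPM (log2 fold change -5.16, adjusted p = 1.14e-06, edgeR). Against the untreated libraries, 4 of 29 genes were higher and 4 lower, where 6.73% and 2.87% of all genes were. Wnt4, Rgs2 and Ccl2 were called there, and Mmp13, at 78.7 CPM in A-5 and 606 CPM in B-4, was not (1.18, adjusted p = 0.372, edgeR).

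The inducers and regulators of Tnfsf11 gave 5 higher and 7 lower genes of 32 tested, with a median of -0.28. Over all genes 13.4% were higher and 5.98% lower. Under the adjusted p alone 6 were higher and 14 lower, where 22.6% and 20.8% of all genes were. This list is not split by the direction in which each gene acts on Tnfsf11. Il6, an inflammatory cytokine, fell from 5.06 CPM to 0.394 ± 0.187 CPM (log2 fold change -3.67, adjusted p = 1.24e-05, edgeR). Ptgs2, the cyclooxygenase that makes prostaglandins, fell by 1.60 and Socs3, a feedback inhibitor of cytokine signals, by 1.57 on the log2 scale. Il1rn, the interleukin-1 receptor antagonist, rose from 0.448 CPM to 5.66 ± 2.45 CPM (3.49, adjusted p = 0.000255, edgeR). With the untreated libraries as the control, 5 of 32 genes were higher and 1 lower, where 6.73% and 2.87% of all genes were. Il1rn and Socs3 were called there, and Il6 (-0.56, adjusted p = 0.513) and Ptgs2 (-1.17, adjusted p = 0.0551) were not (edgeR).

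Among receptors and intracellular partners of the ligands, 2 of 9 tested genes were lower and none higher, with a median of -0.46. Over all genes 13.4% were higher and 5.98% lower. Under the adjusted p alone, 1 of these 9 was higher and 5 were lower in edgeR, where 22.6% and 20.8% of all genes were. Tnfsf10, the TRAIL gene, whose product osteoprotegerin also binds, fell from 4.32 to 1.52 ± 0.326 CPM, and Traf3, an adaptor of the TNF receptor family, fell from 79.0 to 38.3 ± 1.42 CPM. With the untreated libraries as the control no call was made among 8 tested genes, where 6.73% of all genes were higher and 2.87% lower. Tnfsf10 was at -0.99 (adjusted p = 0.192) and Traf3 at -0.46 (adjusted p = 0.125, edgeR).

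Other signals from osteoblasts to osteoclasts gave 5 higher and 6 lower genes of 29 tested, with a median of -0.35. Over all genes 13.4% were higher and 5.98% lower. Under the adjusted p alone 7 were higher and 15 lower, where 22.6% and 20.8% of all genes were. Besides Ccl2, the chemokine genes Ccl7 (29.8 to 1.02 ± 0.446 CPM) and Ccl5 (8.56 to 1.23 ± 0.668 CPM) fell, and so did Sema3e, a semaphorin (14.2 to 2.21 ± 1.09 CPM). Their log2 fold changes were -4.94, -2.86 and -2.81. In all, 3 of 28 genes were higher and 4 lower against the untreated libraries, where 6.73% and 2.87% of all genes were. Ccl7 was called there, and Ccl5 (-0.39, adjusted p = 0.752) and Sema3e (-0.82, adjusted p = 0.273) were not (edgeR). Genes recur across these lists: Ccl2 and Il6, for example, each stand in 2 of them.

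**Figure D4:**
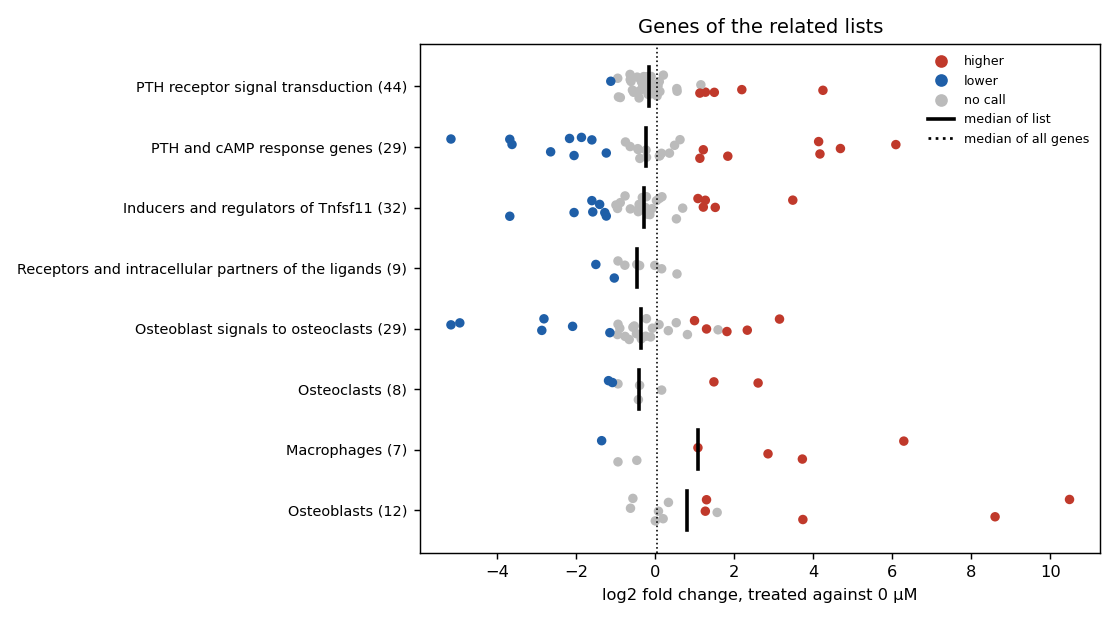
Log2 fold change of each tested gene, treated against 0 μM, by list (red called higher, blue called lower, grey no call, number of tested genes in brackets). The black bar is the median of the list and the dotted line the median over all genes tested, 0.05. The medians of the first 5 lists lie between -0.46 and -0.16, and calls fall on both sides in 4 of them.

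Markers of other cell types were compared beside these results, and their part in them was not tested. Of the 12 osteoblast markers, 5 were higher and 0 lower in edgeR, with a median of 0.81 (2 were lower at an adjusted p under 0.05 alone). Over all genes tested 13.4% were higher and 5.98% lower. Sp7, the osterix gene, rose from 5.59 CPM to 81.4 ± 34.7 CPM, and Alpl, alkaline phosphatase, was at 42.9 ± 19.6 CPM in treated cells and at a mean of 0.0317 CPM at 0 μM. Ibsp, bone sialoprotein, rose from 0.768 CPM to 382 ± 340 CPM and Sparc, osteonectin, from 1399 to 3603 ± 1323 CPM. With the untreated libraries as the control 4 of 12 were higher and 1 lower, where 6.73% and 2.87% of all genes were. Of these named genes, Sparc was not called there (0.80, adjusted p = 0.212, edgeR). Osteoclast markers summed to 144 to 232 FPKM in treated cells, 137 to 141 FPKM at 0 μM and 132 to 168 FPKM in the untreated libraries. Of these markers, 8 were tested, and 2 were higher and 2 lower, beside the same 13.4% and 5.98% of all genes. No call was made among 6 tested against the untreated libraries, beside 6.73% and 2.87% of all genes. The higher count was 1 without 0 μM, 150 μM or 200 μM of day 10 or without 150 μM of day 5, and the lower count was 1 without 0 μM of day 5. Ctsk, the cathepsin K gene, rose from 71.1 CPM to 213 ± 73.8 CPM, while Itgb3 fell from 16.0 to 7.21 ± 1.89 CPM and Tcirg1, a proton pump subunit, from 178 to 83.8 ± 3.99 CPM. The fourth call, Oscar, named after its value was seen, was at 0.298 ± 0.0673 CPM in treated cells.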

How the data were processed

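RNA was enriched on oligo(dT) beads and sequenced on the Illumina platform by the authors. The deposited table gives the raw read count and the FPKM value of each gene in 10 libraries. FPKM is scaled to library size and to a transcript length that differs slightly between libraries. The submitters' processing notes name HISAT2 2.0.4 and GATK 3.2-2 without their roles, and the counting program, the genome build and the use of strand are not given in the sources used here. The table lists 22036 Ensembl genes and 7547 newly assembled loci. Every column of values per library was matched to its library by the code in the title, and none was left over. Columns with the authors' own edgeR contrasts and pathway annotation were not used.

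Counts were analysed in R 4.3.3 with edgeR 4.0.16 (quasi-likelihood test, TMM, filterByExpr), DESeq2 1.42.0 and limma 3.58.1. Python 3.11.15 with scipy 1.17.1 was used for exact tests. Each model was fitted on all genes that passed the filter, and p-values were adjusted over all of them. The code was also run on simulated data of the same design, with the same spread for every gene. That run does not test the calls made here. Treated libraries were compared with 0 μM with day as a covariate. Days and doses were compared in the 6 treated libraries, and the difference of the response between days in a model with 4 groups. Ratios used FPKM with a pseudocount of 0.01 and an exact permutation test that took no account of day. The untreated libraries, which carry no time, were used in alternatives. Library totals were between 27108562 and 58218009 counts, and counting intervals are exact Poisson intervals.

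The genes and lists were chosen with earlier results of these data known. The rule for named genes took the 6 genes, their receptors with Pth2r, and the 3 genes most correlated with each of the 6. It also took up to 4 called genes of each list with the largest fold change (mean CPM of 1 or more). Other named genes are marked as such. The lists covered signal transduction of the parathyroid hormone receptor, its response genes, inducers of Tnfsf11, receptors and partners, osteoblast signals to osteoclasts, and markers of osteoblasts, late osteoblasts, osteoclasts, macrophages, chondrocytes, adipocytes and bone marrow stromal cells. The alternatives were library totals without TMM, DESeq2 size factors, DESeq2, filters of at least 1 count in total or 10 counts in every library, no day or dose covariate, limma on log2(FPKM + 1) or log2(FPKM + 0.1), other controls, other pseudocounts, counts in the ratios, and each library left out in turn. A-5 or B-4 alone as the control, and a covariate for totals above or below 40000000 counts, were added after seeing the data. Positions came from GENCODE M21 and promoters from RefSeq.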

Additional observations from a re-analysis of the deposited data

Results flagged for a closer look

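The 2 libraries labelled untreated, which no comparison at a known dose and time used, each held 1 value above all 8 libraries at a known dose. Tnfrsf11b was at 75.2 CPM in A-5, where the highest library at a known dose, 150 μM on day 10, held 53.2 CPM. Il34 was at 30.2 CPM in B-4, where the highest library at a known dose, 200 μM on day 10, held 22.0 CPM. Neither difference was tested, since each rests on 1 library. Within the 6 treated libraries, none of the 5 genes examined (all but Tnfsf11) had a lowest or highest library that passed Dixon's criterion, which chance alone passes in about 1 of 20 groups.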

How the results depend on the processing

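No paired analysis was possible because neither the labels nor the table give replicate numbers that tie libraries across groups. Of 21 alternatives for treated against 0 μM, 19 kept the call of Pth1r. It was lost with A-5 alone or B-4 alone as the control, where 0 genes of the group were called higher in edgeR (3 of 5 at an unadjusted p under 0.05 in either direction with each of them). Leaving out each library gave 1 to 2 genes called higher, the second being Il34 without the 0 μM library of day 5, and 0 lower. With the untreated libraries as the control, log2 fold changes turned to -0.51 for Tnfrsf11b and -0.45 for Il34. With them added they were -0.092 and -0.011. With A-5 alone Tnfrsf11b was at -0.92, and with B-4 alone Il34 was at -0.88 and Csf1 at 0.38. The filter of at least 1 count in total called 1 gene, Pth1r, for the difference between days and 1 for the trend with dose, and the cause was not tested. Between days in treated cells 0 to 1 genes were called when each library was left out, 0 without 100 μM on day 5, where the log2 change of Pth1r was 1.91. Leaving out a treated library also turned the signs of values near 0. Csf1 between days lay between -0.11 and 0.040, positive without 100 μM on day 5 or on day 10 (0.033), and its slope with dose between -0.12 and 0.16, negative without 100 μM or 200 μM (-0.00154) of day 10. The slope of Il34 lay between -0.19 and 0.21, negative without 200 μM on day 10. Pthlh between days lay between -0.12 and 0.47, negative without 200 μM on day 5 or 150 μM on day 10, its slope between -0.89 and 0.087, positive without 200 μM on day 5, and its difference between days between -0.32 and 0.12, positive without 100 or 150 μM on day 5 and without 100 or 200 μM on day 10.

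The log2 ratio of Tnfsf11 to Tnfrsf11b (FPKM + 0.01) is set by the pseudocount in the 8 libraries where Tnfsf11 was at 0 and tests nothing. Its difference was 0.11, -0.31 with a pseudocount of 0.1 and between -0.21 and 0.30 with each library left out. That of Csf1 to Il34 was 0.37 with the untreated libraries as the control, -0.56 with them added to 0 μM, and between -1.62 and -1.36 with each library left out. Without either 0 μM library its exact permutation p was 0.143, the smallest that 7 splits allow.

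Counts of called genes per list moved with the control and with the measure. The share of all genes called was taken only in the main fit and with both untreated libraries as the control. Counts in the other settings, those of cell markers included, lack this background and are not results about the lists. With untreated libraries in or as the control (4 settings), PTH signal transduction had 3 to 5 higher and 0 to 1 lower, PTH and cAMP response genes 3 to 7 higher and 0 to 8 lower, inducers of Tnfsf11 3 to 5 higher and 0 to 4 lower, receptors and partners 0 to 1 higher and 0 to 1 lower, and osteoblast signals 3 to 4 higher and 1 to 6 lower. For the response genes and the inducers, the lowest counts of lower genes came with B-4 alone, a single control library. Over the 9 other settings with all libraries, the counts were 1 to 5 and 1 to 2, 3 to 7 and 7 to 9, 3 to 5 and 5 to 9, 0 and 0 to 2, and 3 to 5 and 6, in the same order of lists, higher first. With limma on log2(FPKM + 1), 1 gene of signal transduction was higher and 0 of the receptors and partners were lower. Leaving out each library gave 4 to 5 and 1, 5 to 7 and 8 to 9, 4 to 5 and 5 to 8, 0 and 2, and 4 to 5 and 5 to 7.

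Precision was limited by 1 library per dose and day, by 2 control libraries, and for Tnfsf11 and Pthlh by depth, at 3 and 110 counts over all libraries.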

Other observations

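Further marker lists were counted for treated against 0 μM in the same edgeR fit, in which 13.4% of all genes were higher and 5.98% lower. With the untreated libraries as the control, 6.73% of all genes were higher and 2.87% lower. Of 9 tested markers of late osteoblasts and osteocytes, 4 were higher and 1 lower, with a median log2 fold change of 0.69. Tnc, a matrix glycoprotein gene, rose from 31.2 CPM at 0 μM to 869 ± 418 CPM (SD, n = 6), and Irx5, a transcription factor gene, from 29.2 to 145 ± 43.0 CPM. Dmp1, a mineralization gene of osteocytes, fell from 2.98 to 0.752 ± 0.571 CPM. The remaining calls, Sost and Mepe, were named after their values were seen and averaged under 1 CPM in treated cells. The counts were 2 higher and 1 lower of 9 against the untreated libraries, and without 0 μM of day 5 no gene was lower.

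Of 10 markers of bone marrow stromal cells, 3 were higher and 1 lower, with a median of -0.27. Kitl, the stem cell factor gene, rose from 37.9 to 140 ± 43.8 CPM, Pdgfra, a growth factor receptor gene, from 416 to 928 ± 188 CPM, and Lepr, the leptin receptor gene, from 0.935 to 2.52 ± 0.638 CPM, whereas Vcam1, an adhesion gene, fell from 369 to 172 ± 19.8 CPM. Of the 10, 1 was higher and 1 lower against the untreated libraries, and Kitl (-0.31) and Pdgfra (-0.59) were not called there (adjusted p = 0.631 and 0.171, edgeR). Without 0 μM of day 10, 2 were lower. Of 8 chondrocyte markers, 3 were called, each higher, among them Comp (1.41 to 5.22 ± 1.10 CPM) and Col11a2 (3.92 to 8.36 ± 0.798 CPM). The third, Ihh, was named after its value was seen. Against the untreated libraries 1 of 7 was higher, beside 6.73% of all genes. Fewer were higher without 0 μM of day 10, which leaves 1 control library. With limma on log2(FPKM + 1) none was higher. Of 5 adipocyte markers, 1 was called, higher. It was Lep, also named afterwards, at 0.884 ± 0.441 CPM in treated cells, and its call was lost without 0 μM of day 5. Of 7 macrophage markers tested, 4 were higher and 1 lower. The higher count was 1 without 0 μM of day 5, 1 of 5 against the untreated libraries and 0 with limma on log2(FPKM + 1). Lyz2 rose from 22.2 to 46.3 ± 12.2 CPM and Cd14 fell from 10.4 to 4.08 ± 0.917 CPM. The others, Fcgr1, Mrc1 and Spi1, named after their values were seen, averaged under 1 CPM in treated cells, and Cd52, Cx3cr1 and Tyrobp had at most 3 counts in any library. The summed macrophage level was 24.9 to 45.2 FPKM in treated cells, 18.2 to 26.9 FPKM at 0 μM and 18.8 FPKM in both untreated libraries.

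Over the 10 libraries, Csf1 and Il34 had a Pearson's r of -0.772 on log2 CPM, and Pth1r and Pthlh one of 0.771. The points share library, depth and treatment, and both values are descriptions.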
